A study of Mus musculus with 4 samples.

Results

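Among 93602 cells kept from regenerating mouse digits, 258 held UMIs of at least 3 of the genes Krt42, Ccer2, Spink12, Spink6 and Gpx2 and took at least 0.5% of their UMIs from Krt6a, Krt16 and Krt17 together. A UMI, or unique molecular identifier, counts 1 captured transcript. A cell was a barcode with 200 to 5500 genes, at most 30000 UMIs and at most 10% mitochondrial UMIs. The cells had been proposed as Krt42 Spink12 nail-type keratinocytes, with Krt42, Ccer2, Spink12, Krt16 and Krt6a as markers. Krt42 had no UMI in 140 of the 258 cells and Ccer2 none in 251, so the cells are called here by the genes that most of them held, as Spink12 Gpx2 Krt6a cells. The digits were digested whole, so no value placed these cells in the nail.

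The study asked whether reducing lymphatic function changes bone regeneration after amputation of the terminal phalanx (P3) of the digit. All mice were female and 6 to 8 weeks old, of the strain C57BL/6 in the labels and C57BL/6J in the methods. Hind limb digits 2 to 4 were taken at the proximal end of the second phalanx, and the digits of 10 mice were pooled in each of 4 libraries made with 10x 3′ chemistry. The methods describe amputation of P3 on digits 2 and 4 only, so the pools also held digit 3. The labels give no day of harvest, and the study's text places the sequenced tissue at 8 days post amputation (DPA) but a figure legend on the SAR131675 pair at 5 DPA. In the first experiment, 1 library came from mice fed the VEGFR3 inhibitor SAR131675 at 30 mg/kg of chow, starting 5 days before amputation, and 1 from mice on control diet, and the series' design text gives a diet of 8 days, a length that does not reach from 5 days before amputation to 8 DPA. In the second experiment, 1 library came from digits after lymph node removal (LNR) and 1 from digits labelled as control, called sham here because the study's text names the contralateral limb as sham, so that these 2 libraries may come from the same mice. The labels number the batches 1 to 4, a different one for every library, so that library, batch and treatment cannot be told apart. With 1 library per condition, no difference between conditions was tested, and the intervals given for them cover counting error only. Throughout, values of the 4 libraries stand in the order SAR131675, control diet, LNR and sham.

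Keratins are the filament proteins of epithelial cells and assemble from pairs of a type I and a type II chain. Krt5 and Krt14 mark the basal layer that lies on the basement membrane, Krt1 and Krt10 the spinous layer above it, and loricrin (Lor) and filaggrin (Flg) the granular layer that forms the cornified barrier. Krt6a, Krt6b, Krt16 and Krt17 are held at low levels in most interfollicular skin, are known from the nail bed and the companion layer of the hair follicle, and are induced in keratinocytes at wounds. Krt42 is a type I keratin described in the nail unit. The nail plate and hair shaft are built from hard keratins such as Krt31, Krt34, Krt81, Krt84 and Krt86, under matrix factors that include Hoxc13. Spink12 and Spink6 belong to the Kazal-type inhibitors of serine proteases, and Gpx2 is a glutathione peroxidase of epithelia.

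The promoter windows of Krt42, Krt36 and Krt84, read from RefSeq on GRCm38.p6, are shown because these keratin genes, tied to nail and hair, were held by only some of the Spink12 Gpx2 Krt6a cells. The table held 3 of the 10 keratin, Spink and Hoxc13 genes looked up, and Krt6a, Krt6b, Krt16, Krt17, Hoxc13, Spink12 and Spink6 are named only. Each run holds the 150 bases before the gene's start, 5′ to 3′ on the minus strand. Capitals mark a match to the TATA-like element ATANAAG, which was chosen after the letters had been seen.
Krt42, chr11:100269952-100270101: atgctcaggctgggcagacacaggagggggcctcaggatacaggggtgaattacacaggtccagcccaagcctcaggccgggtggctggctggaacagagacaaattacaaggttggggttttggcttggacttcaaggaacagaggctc
Krt36, chr11:100105627-100105776: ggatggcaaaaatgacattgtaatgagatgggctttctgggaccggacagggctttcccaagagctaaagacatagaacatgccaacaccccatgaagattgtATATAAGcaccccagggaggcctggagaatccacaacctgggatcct
Krt84, chr15:101532821-101532970: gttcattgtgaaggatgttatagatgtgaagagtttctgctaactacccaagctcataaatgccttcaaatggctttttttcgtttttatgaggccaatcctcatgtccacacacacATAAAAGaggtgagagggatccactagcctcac
The match began 47 bases before the start in Krt36 and 33 bases before it in Krt84, and these letters were not in the window of Krt42. On either strand, ATANAAG stood in 6.83% of 32851 promoter windows of this length, the AP-1 motif TGANTCA in 4.24% and TGACNNNGC, the core of the antioxidant response element, in 6.80%. Neither of the last 2 motifs was in these 3 windows.

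Depth differed between the experiments and between the cells of the rule and the rest. The libraries held 168507188 to 585284877 UMIs over 21669 to 38464 barcodes. All kept cells had median UMI counts of 11316, 10712, 5725 and 5851, and the Spink12 Gpx2 Krt6a cells had medians of 19193, 16446, 13036 and 10211 UMIs over 4701, 4482, 2876 and 2662 genes. Their UMIs summed to 1922964, 789568, 841212 and 517889. Of the barcodes, 348 occurred in both libraries of the SAR131675 pair and 130 in both of the LNR pair, and none of these was a Spink12 Gpx2 Krt6a cell in both. Of 16 markers of leukocytes, fibroblasts, endothelium, melanocytes, Schwann cells, red cells and mural cells, 15, 11, 12 and 9 had a UMI in these cells. Their summed level was 534, 73.5, 852 and 506 CPM, where CPM is UMIs per 1000000 UMIs of the summed cells. The marker with most UMIs was Hbb-bs in the SAR131675 library at 341 CPM and in the control diet library at 25.3 CPM, Col1a2 in LNR at 216 CPM and Col1a1 in sham at 168 CPM. The endothelial and leukocyte markers Pecam1, Cdh5 and Ptprc lay between 0 and 4.68 CPM. At least 2 of the 16 markers stood in 69 of the 258 cells.

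The cells were chosen by the measured UMIs of the 8 genes of the rule, whose levels are therefore given as a description. Spink12 had 19183, 26867, 26909 and 17129 CPM and UMIs in 235 cells. Spink6 had 2045, 1769, 2058 and 1402 CPM, in 243 cells. Gpx2 had 672, 597, 1035 and 821 CPM, in 255 cells. These genes differed by less than 2-fold between the libraries. Krt6a had 9672, 10869, 9143 and 8398 CPM, Krt16 6698, 7633, 6067 and 4582 CPM and Krt17 8329, 8555, 10689 and 9255 CPM. Over whole transcripts, Krt6a shared 45.7% of its 50-base stretches with other genes, mostly Krt6b, and Krt16 37.6%. Krt42 shared 0.234% and Spink12 and Spink6 none. The libraries were made with 3′ chemistry, and how far these shares affect their counts was not tested. Krt42 varied more, at 4138, 1678, 1429 and 2207 CPM, and it was highest in the SAR131675 library and lowest in LNR.

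Among the kept cells, few carried most of the UMIs of some of these genes. Barcodes above the limits on genes and UMIs, of which 101 met the rule on the 8 genes, are not counted in these shares. The 258 cells held 85.8, 76.1, 72.3 and 70.5% of the Spink12 UMIs of each library's kept cells, although they were under 0.4% of those cells. They held 53.3, 52.1, 60.3 and 43.9% of the Krt16 UMIs and 71.1, 50.4, 72.9 and 71.4% of those of Krt6b, which the rule did not use. Of Spink6 they held 53.2, 50.3, 40.3 and 29.0%. Most UMIs of Gpx2, Krt6a and Krt17 lay in other kept cells. The Spink12 Gpx2 Krt6a cells held 27.7, 20.5, 29.0 and 16.1% of Gpx2 and 27.0, 23.1, 36.2 and 22.4% of Krt6a. Of Krt17 they held 8.51, 5.35, 10.1 and 4.49%. For Krt42 the share was 75.4, 59.7, 22.3 and 17.1%, so in the LNR and sham libraries most Krt42 UMIs of kept cells lay in other cells. Ccer2 went against the proposed name. It had 2.08, 13.9, 0 and 5.79 CPM in the cells, with UMIs in 7 of them, and they held 18 of the 24473 Ccer2 UMIs of all kept cells, or 0.0736%.

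Free RNA in droplets gives UMIs to cells that do not express a gene, so shares of cells with a UMI are set beside those of mesenchymal cells, taken as cells with at least 1% of UMIs from Col1a1, Col1a2 and Col3a1. Krt42 had a UMI in 62.1, 38.3, 30.2 and 37.8% of Spink12 Gpx2 Krt6a cells and in 0.305% to 0.571% of mesenchymal cells, whose median depth was 3918 to 10292 UMIs. Thinned to 3000 UMIs per cell, these shares were 45.9, 25.5, 27.9 and 25.6% and 0.0870% to 0.524%. Krt42 is a gene of the rule, which sets its share in part, so these shares are a description. The spinous keratin Krt10, which the rule did not use, had a UMI in 93.2, 85.1, 66.7 and 68.9% of the cells and in 89.1, 78.8, 50.4 and 50.7% of mesenchymal cells. After thinning these shares were 51.0, 48.9, 37.7 and 37.2% and 55.5, 44.7, 36.1 and 39.3%, so that the presence of single Krt10 UMIs was at the background.

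**Figure D1:**
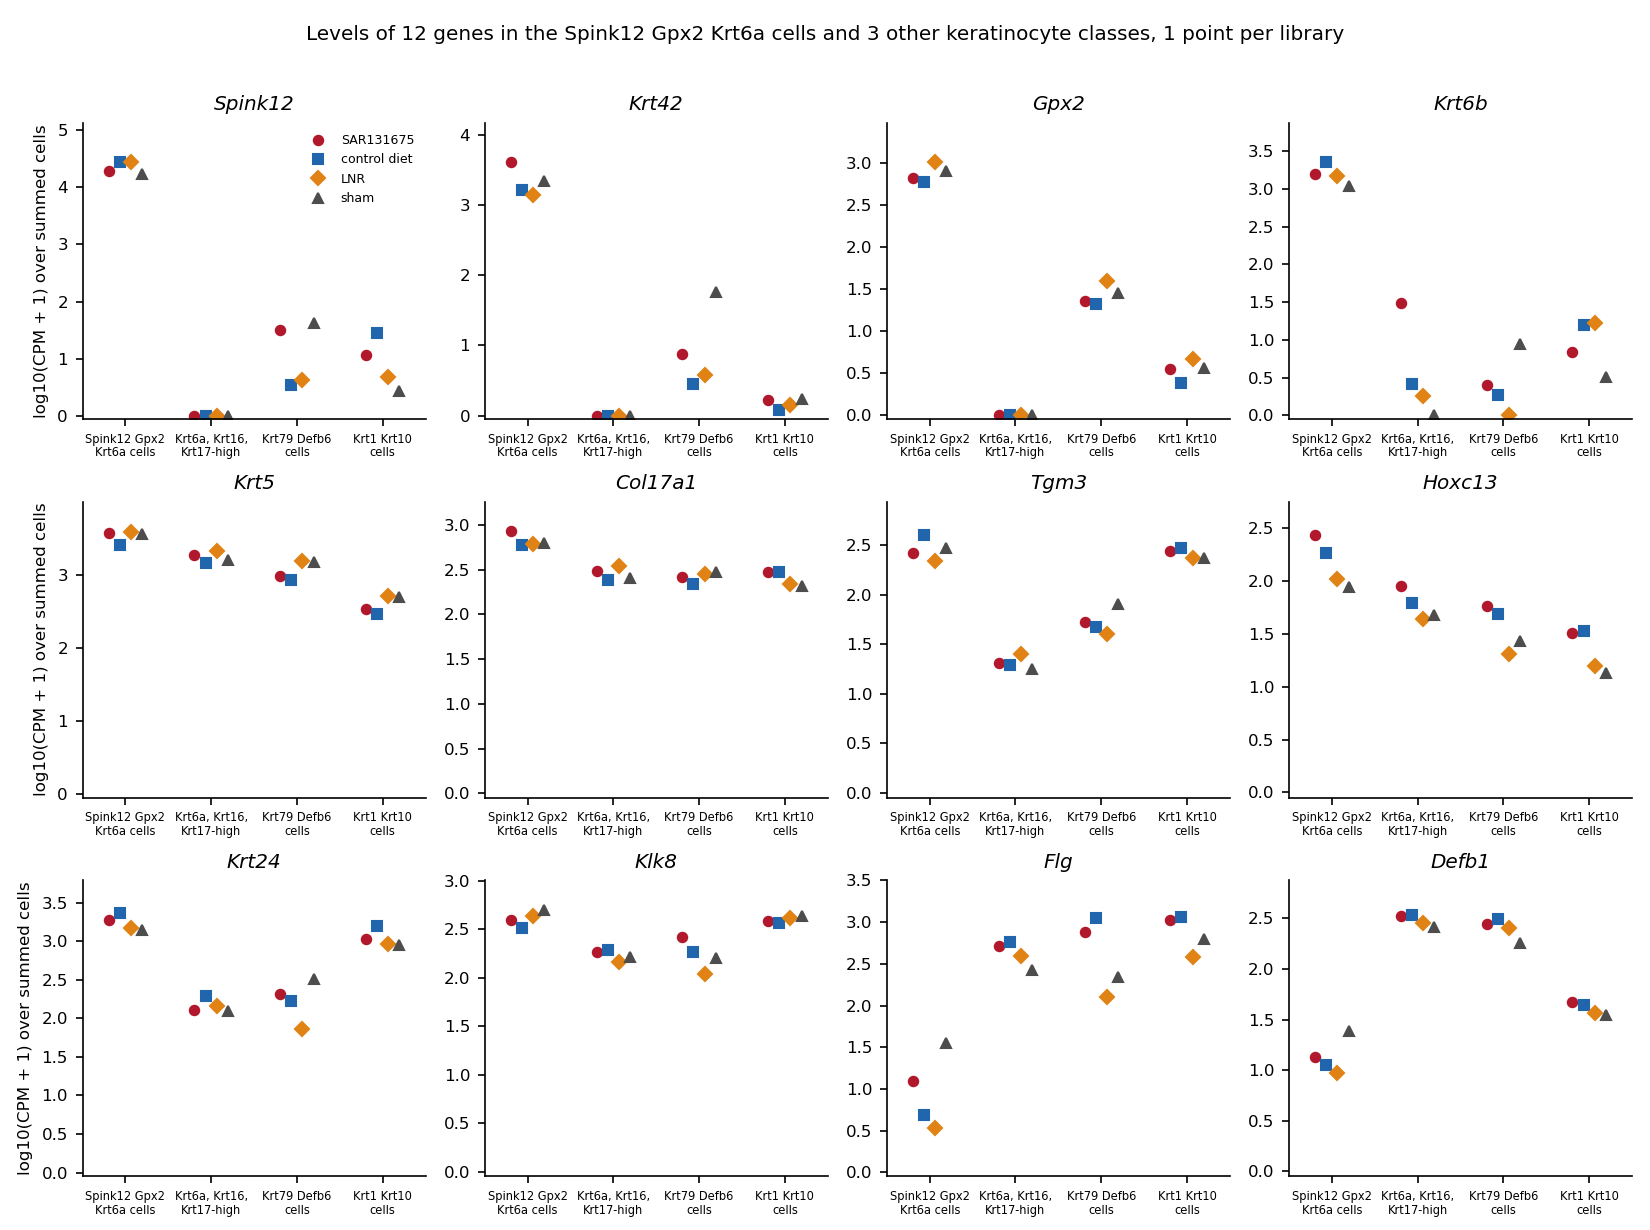
Level of 12 genes, as log10 of CPM plus 1, in the Spink12 Gpx2 Krt6a cells and 3 other keratinocyte classes, with 1 point per library. Spink12, Krt42 and Gpx2 chose the cells, and Krt6b, which did not, was at 1101 to 2257 CPM in them, above all 4 points of every other class, whereas Flg and Defb1 were below the points of the other classes.

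The cells near the limits of the rule are given as a description. Of the cells with at least 0.5% of UMIs from Krt6a, Krt16 and Krt17, 1659 had none of the 5 genes, 960 had 1, 280 had 2, 175 had 3, 82 had 4 and 1 had all 5. Cells with exactly 3 of them held Spink12, itself one of the genes counted, at 18711 to 26834 CPM and Krt79, a keratin of the hair canal, at 7.04 to 26.2 CPM. Cells with exactly 2 held Spink12 at 1008 to 6569 CPM and Krt79 at 536 to 2066 CPM. At the limit of 0.5%, 6 cells lay between 0.5% and 0.6% and 12 between 0.4% and 0.5%. The 1 LNR cell just inside had 152 CPM of Krt42 and the 1 sham cell 15757 CPM.

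The Spink12 Gpx2 Krt6a cells were not uniform. Spink12 and Krt16 belong to the rule, so their values across the cells are a description. Spink12 ranged from 0 in 23 cells to 187822 CPM in 1 cell, with a median of 10910.0 CPM over the 258 cells. Krt5 was at 0 in 25 cells and reached 11640.3 CPM. Across the cells of a library, the Spearman correlation of Krt5 with Spink12 was -0.72 to -0.51 and that of Spink12 with Krt16 0.70 to 0.78, in 103, 47, 63 and 45 cells. Spink12 also followed Tgm3, an epidermal transglutaminase, at 0.59 to 0.76. These coefficients describe cells that share a library and a total, and shares of 1 total can move against each other without a change in number. The correlation of Spink12 with the UMI count of the cell was -0.03 to 0.50, and that of Krt5 with it -0.30 to -0.02.

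The cells of each library were divided into 3 groups of nearly equal size by the share of Krt5, of 15 to 35 cells each. Of 5363 genes with at least 100 UMIs over the 258 cells, 1014 (18.9%) were higher in Krt5-high than in Krt5-low cells in all 4 libraries and 552 (10.3%) lower. Of the 9 other basal genes, all with at least 100 UMIs, 6 were higher in Krt5-high cells in this way, 0 lower and 3 neither. Col17a1, collagen XVII of the hemidesmosome, had 1732, 1547, 1071 and 1128 CPM in Krt5-high and 80.3, 73.6, 458 and 308 CPM in Krt5-low cells. The ranges did not overlap. Integrins α6 and β4 (Itga6 and Itgb4) were at 253 to 667 CPM and 148 to 261 CPM in Krt5-high cells and at 63.0 to 165 CPM and 14.2 to 122 CPM in Krt5-low cells. Krt14 showed a weaker difference, with 9334, 8963, 10663 and 9881 CPM in Krt5-high and 4398, 5029, 5748 and 7909 CPM in Krt5-low cells.

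Krt5-low cells held most of the Spink12 and of the wound keratin Krt6b. Spink12 had 40078, 47099, 49932 and 35041 CPM there and 4045, 5375, 8539 and 2402 CPM in Krt5-high cells. Krt6b had 4596, 5906, 3811 and 2863 CPM in Krt5-low and 83.0, 3.99, 4.21 and 0 CPM in Krt5-high cells. Krt16 fell on the same side, at 10009 to 12059 CPM against 1313 to 3728 CPM, whereas Krt17 was higher in the Krt5-high cells of 3 libraries, and Gpx2 was slightly higher in those of all 4. Of 10 spinous genes, 9 had at least 100 UMIs, and 8 of these were higher in Krt5-low cells in all 4 libraries and 0 lower. Of 20 granular and cornified envelope genes, 6 had at least 100 UMIs, and 5 of these were higher and 1 lower. The 1 lower was Lor, at 11.6 to 40.9 CPM in Krt5-low and 16.8 to 54.3 CPM in Krt5-high cells. Krtdap, a keratinocyte differentiation protein, had 7080.1 to 12056 CPM in Krt5-low and 2336 to 4944 CPM in Krt5-high cells, Tgm3 286 to 703 CPM and 46.8 to 122 CPM, and the envelope gene Sprr1b 164 to 751 CPM and 8.43 to 39.3 CPM. Krt10 was carried by few cells. It had 9787, 6307, 7195 and 354 CPM in Krt5-low and 275, 136, 333 and 157 CPM in Krt5-high cells, its median over all 258 cells was 156 CPM, and 1 cell had 47474 CPM. Sham differed there, with its highest Krt10 level, 5947 CPM, in the cells of middle Krt5.

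**Figure D2:**
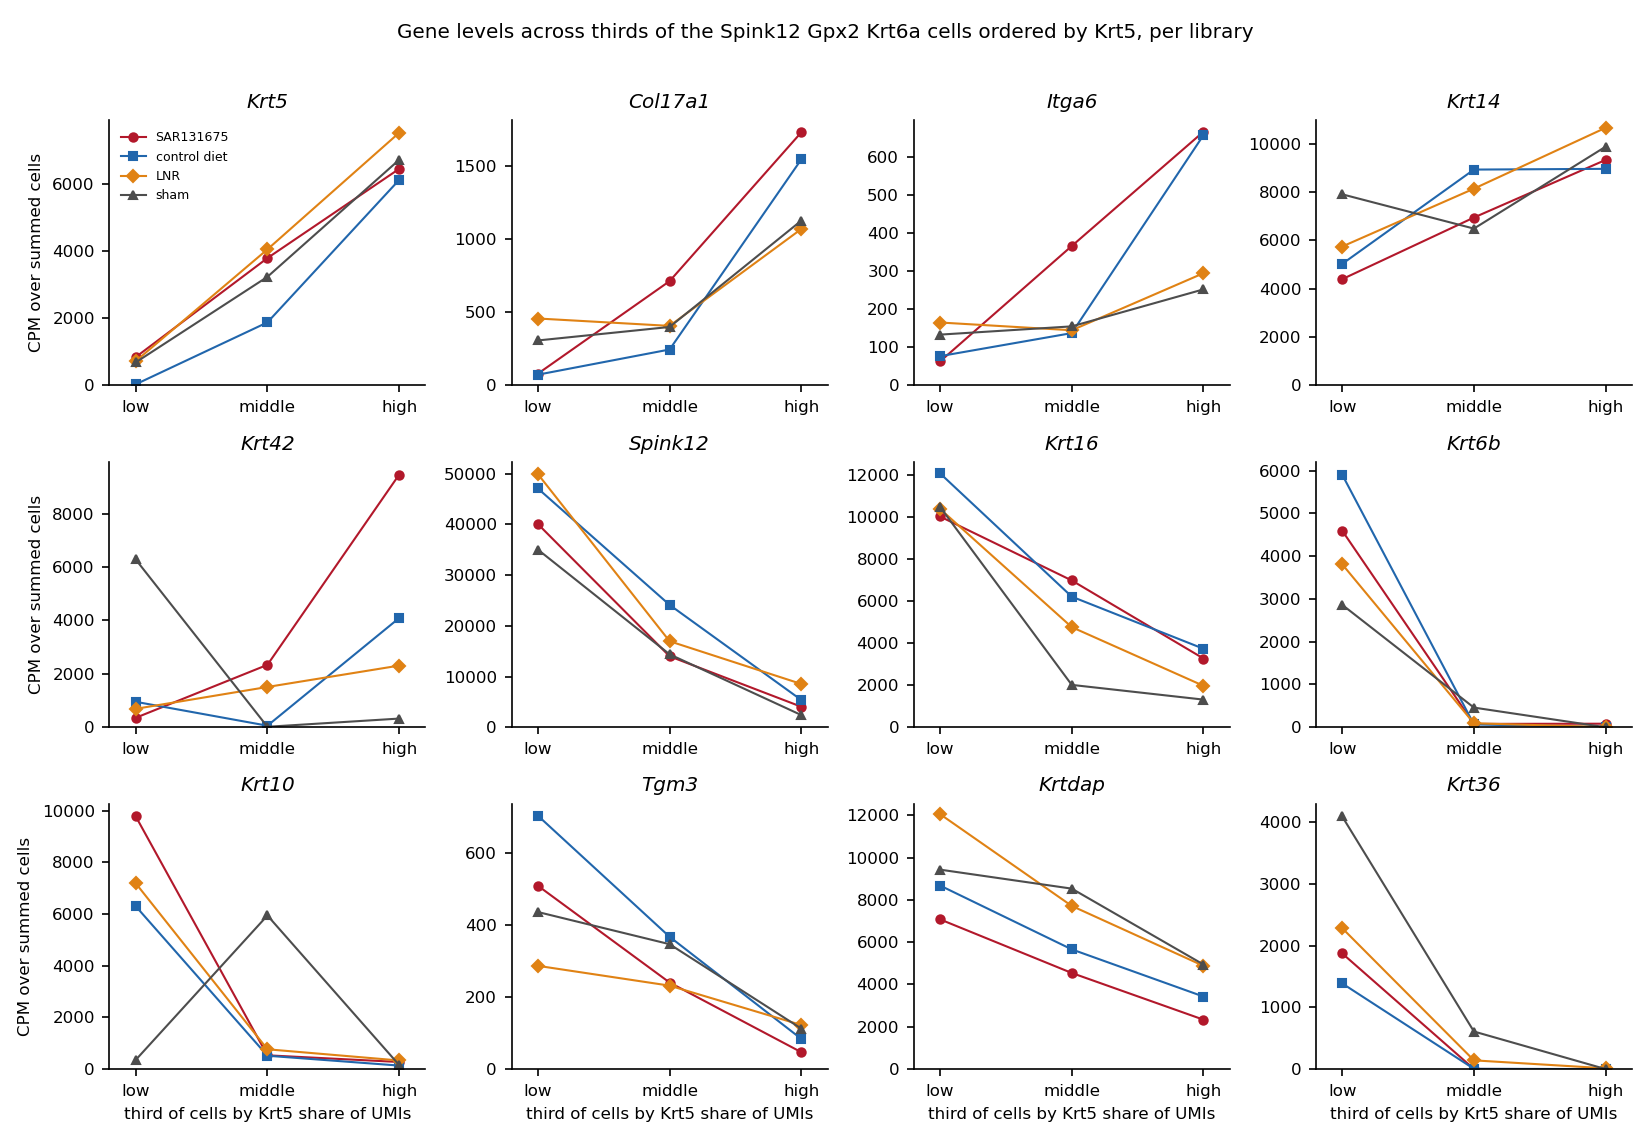
Levels in CPM of 12 genes in the cells of low, middle and high Krt5 share of each library, 15 to 35 cells per point. Spink12, Krt16, Krt6b, Tgm3 and Krtdap were highest in Krt5-low cells in all 4 libraries and Col17a1 and Itga6 in Krt5-high cells, whereas Krt42 was highest in Krt5-high cells in 3 libraries and in Krt5-low cells in sham.

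Krt42 was held by a part of the cells. It had at least 5 UMIs in 83 cells, 1 to 4 UMIs in 35 and none in 140. Of the 83 cells, 31 had fewer than 5 UMIs of Spink12. The rule asks for 3 of 5 genes that include both, so it sets in part how often they occur together. Krt42 had 9462, 4091, 2309.6 and 325 CPM in Krt5-high and 354, 954, 690.3 and 6283 CPM in Krt5-low cells, so that its side changed in sham. There, 10 cells had at least 5 UMIs of Krt42, and a single cell held 37.6% of its UMIs. Krt90, a type II keratin, followed Krt42 at 0.28 to 0.60.

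Hard keratins were confined to a few of the cells. Krt36 had a UMI in 16 and Krt84 in 15 of the 258 cells, and at least 5 UMIs of either stood in 12 cells, 3 in each library. These genes were correlated across cells at 0.58 to 0.88. The 3 cells of each library had together 36012, 7274, 15608 and 14183 CPM of Krt36 and 12135, 5609, 5663 and 4587 CPM of Krt84. They also held Spink12, at 69118, 35948, 39309 and 38735 CPM. Their Krt42 level was 726, 35.1, 0 and 0 CPM. Krt36 and Krt84 had 0 to 12.6 CPM in Krt5-high cells. Spink12 and Krt42 belong to the rule, which sets their levels in these 12 cells in part.

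To ask what sets the Spink12 Gpx2 Krt6a cells apart from other keratinocytes, their UMIs were summed per library and compared with those of 3 other classes of the same libraries in edgeR's quasi-likelihood test, with the library as a block. The first class, Krt6a Krt16 Krt17-high cells, met the keratin limit and had none of the 5 genes (515, 427, 317 and 400 cells). Krt79 Defb6 cells had UMIs of both of these genes of the hair follicle infundibulum (1280, 873, 740 and 1273 cells). Krt1 Krt10 cells took at least 1% of UMIs from these spinous keratins and under 0.05% from Krt9 (5516, 5881, 2112 and 2444 cells). The classes overlap, since 36.6% to 50.8% of the Krt6a Krt16 Krt17-high cells were also Krt79 Defb6 cells, and the 3 comparisons share the same sums of Spink12 Gpx2 Krt6a cells, so they are not independent of each other. Genes that define either side were not tested. None of the 3 classes was chosen by basal genes. Krt1 Krt10 cells were chosen by spinous genes and Krt79 Defb6 cells by infundibulum genes. This choice sets in part the results of the basal, spinous and infundibulum lists. A gene was called at a Benjamini-Hochberg adjusted p under 0.05 and a difference of at least 2-fold. Log2 fold changes are given ± SE, in the order Krt6a Krt16 Krt17-high, Krt79 Defb6 and Krt1 Krt10 cells. The SE is the absolute log2 fold change divided by the square root of the test's F statistic. It is not the spread of the differences seen in the 4 libraries.

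Against Krt6a Krt16 Krt17-high cells, 553 genes (4.96%) were called higher and 1106 (9.92%) lower of 11153 tested, 14.9% in all. Against Krt79 Defb6 cells, 633 (4.72%) were higher and 1437 (10.7%) lower of 13414, 15.4% in all. Against Krt1 Krt10 cells, 1164 (7.99%) were higher and 1130 (7.75%) lower of 14576, 15.7% in all. Of 11112 genes tested in all 3, 233 (2.1%) were called higher in each with the same direction in all 4 libraries, and 382 (3.44%) lower. Without the library block the calls were 946, 1060 and 1537 in place of 1659, 2070 and 2294. The other classes had median depths of 6759 to 16255 UMIs per cell and summed other-lineage markers of 284 to 1974 CPM. With every cell thinned to 3000 UMIs the calls were 961, 1169 and 1235, of 8161, 9305 and 11387 genes tested, and without the Spink12 Gpx2 Krt6a cells that held at least 2 other-lineage markers they were 1753, 2352 and 2321.

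Of the 15 genes named as higher in all 3 comparisons, 4 were keratins. Krt6b, a type II keratin like Krt6a, had 1573, 2257, 1457 and 1101 CPM in the Spink12 Gpx2 Krt6a cells. It had 0 to 29.3 CPM, 0 to 7.75 CPM and 2.23 to 15.6 CPM in the Krt6a Krt16 Krt17-high, Krt79 Defb6 and Krt1 Krt10 cells. The groups did not overlap, and the log2 fold changes were 8.18 ± 0.69, 9.62 ± 0.70 and 7.47 ± 0.29 (adjusted p 4.13e-11 to 6.12e-06). Krt6b shared 50.1% of its 50-base stretches with other genes, counted over whole transcripts. How far this affects counts of 3′ libraries was not tested. In Krt5-high cells, Krt6a had 5263 to 7140 CPM and Krt6b 0 to 83.0 CPM. Krt90 had 548, 189, 453 and 560.0 CPM, with log2 fold changes of 7.87 ± 0.26, 7.49 ± 0.76 and 10.56 ± 0.27 and UMIs in 89 cells. Krt36 had 619.9, 527, 906 and 1558 CPM and log2 fold changes of 11.08 ± 0.27, 8.66 ± 0.59 and 6.09 ± 0.68, and Krt84 209, 407, 328 and 508 CPM and 6.38 ± 0.68, 8.11 ± 0.40 and 5.65 ± 0.55. Other kept cells held most of the UMIs of these 3 genes in most libraries, since the Spink12 Gpx2 Krt6a cells held 5.5% to 45.7% of each library's Krt36, 6.88% to 32.4% of its Krt84 and 14% to 66.0% of its Krt90. As given above, Krt36 and Krt84 came from 16 and 15 cells. A single cell held 85.3, 92.1, 75.6 and 61.2% of the Krt36 UMIs of the libraries. For Krt84 a single cell held 84.5, 49.2, 48.2 and 49.8%. The fold changes of both genes thus rested largely on 1 or a few cells per library.

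The other named genes were not keratins. Gapdhs, the glyceraldehyde-3-phosphate dehydrogenase known from sperm, had 60.8, 69.7, 72.5 and 81.1 CPM in 136 cells and was higher by 7.01 ± 0.34, 5.91 ± 0.20 and 4.53 ± 0.19 on the log2 scale (adjusted p 8.8e-11 to 1.92e-07). Its 4 values lay close together and above those of every other class, which reached 3.36 CPM. Itga8, an integrin chain, had 44.7, 59.5, 25 and 13.5 CPM in 98 cells and log2 fold changes of 4.20 ± 0.27, 4.73 ± 0.45 and 5.96 ± 0.47. Casq2, a calcium-binding protein of the sarcoplasmic reticulum, had 41.6, 25.3, 33.3 and 36.7 CPM in 88 cells. Its log2 fold changes were 4.31 ± 0.36, 5.62 ± 0.30 and 7.19 ± 0.43.

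Dlx6, a homeobox factor of limb and branchial arch development, had 26.0, 26.6, 15.5 and 13.5 CPM in 68 cells, with log2 fold changes of 5.72 ± 0.46, 6.46 ± 0.56 and 6.62 ± 0.51. Bmpr1b, a type I receptor for bone morphogenetic proteins, had 101, 76.0, 2.38 and 5.79 CPM in 91 cells and log2 fold changes of 4.34 ± 0.24, 4.30 ± 0.37 and 5.38 ± 0.38. Both libraries of the SAR131675 pair lay far above both of the LNR pair in Bmpr1b. The pairs also differ in the depth given above and in the counting software, Cell Ranger. The matrix headers give version 8.0.1 for the SAR131675 pair and 6.1.2 for the LNR pair. These differences cannot be told apart. Clec2e, a C-type lectin, showed the same split, at 31.7, 36.7, 3.57 and 5.79 CPM. The remaining genes named by the rule rested on few cells or UMIs, which were Gm37797 (10 cells), Lyg1 (10), Tcfl5 (15), Pirt (17) and E030013I19Rik (26). Their log2 fold changes lay between 4.23 and 10.69, and Lyg1 had 199.7 CPM in LNR against 1.56 to 30.9 CPM elsewhere. The call of Lyg1 against Krt79 Defb6 cells was lost without the library block (adjusted p = 0.165).

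The 10 genes named as lower had no UMI in the 4071633 UMIs of the Spink12 Gpx2 Krt6a cells, where 3 UMIs over the group, or 0.737 CPM, set the floor. Anxa9, an annexin of keratinocytes, was at least 76.3-fold lower than in Krt6a Krt16 Krt17-high cells, at least 37.7-fold lower than in Krt79 Defb6 cells and at least 19.3-fold lower than in Krt1 Krt10 cells. Slc39a8, a zinc and manganese importer, was at least 42.2-fold, 7.30-fold and 5.20-fold lower. The others were Acp7, Add2, Ppfia4, P2ry4, Trbc1, Gm15635, Gm42711 and Gm57126. Against Krt1 Krt10 cells the bound of Ppfia4 was 1.87-fold, under the 2-fold limit of the calls. Those of Add2, P2ry4, Trbc1 and Gm15635 were 2.47-fold, 2.56-fold, 2.66-fold and 2.92-fold. For Ppfia4, Trbc1, Gm15635, Add2 and P2ry4, leaving out 1 library ended a call against Krt79 Defb6 or Krt1 Krt10 cells, with adjusted p up to 0.124.

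Most basal genes tested were higher in the Spink12 Gpx2 Krt6a cells than in the 3 other classes. No class of basal cells was compared. Over all genes tested, 4.96%, 4.72% and 7.99% were called higher and 9.92%, 10.7% and 7.75% lower in the 3 comparisons. The counts of this and the following lists are to be read beside these shares. The list of 10 basal genes had 7 higher and 1 lower of 10 tested against the Krt6a Krt16 Krt17-high cells, 6 higher and 1 lower of 10 against the Krt79 Defb6 cells and 6 higher and 0 lower of 10 against the Krt1 Krt10 cells, with medians of 1.08, 1.17 and 1.68 on the log2 scale against -0.0026, -0.07 and -0.11 over all genes tested. Krt5 had 3729, 2524, 3783 and 3582 CPM and exceeded the other classes by 1.04 ± 0.07, 1.63 ± 0.12 and 2.94 ± 0.09 on the log2 scale, and Krt14 had 6928, 7465, 7959 and 8129 CPM and exceeded them by 1.51 ± 0.08, 1.11 ± 0.06 and 3.31 ± 0.08. Both were above every value of the other classes. Col17a1 had 855, 594, 613 and 619.8 CPM and log2 fold changes of 1.32 ± 0.11, 1.46 ± 0.13 and 1.24 ± 0.09. Krt15, a keratin of resting basal and follicle bulge cells, went the other way at 144, 86.1, 103 and 141 CPM, with log2 fold changes of -2.69 ± 0.14 and -2.61 ± 0.15, both called, and of -0.37 ± 0.17 against Krt1 Krt10 cells, which did not pass.

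Genes of late differentiation were called lower more often than higher. The spinous list had 0 higher and 4 lower of 10 tested against the Krt6a Krt16 Krt17-high cells, 0 higher and 4 lower of 10 against the Krt79 Defb6 cells and 0 higher and 6 lower of 8 against the Krt1 Krt10 cells (medians -0.54, -0.47 and -1.34). The granular and cornified envelope list had 1 higher and 12 lower of 17 tested against the Krt6a Krt16 Krt17-high cells, 2 higher and 12 lower of 18 against the Krt79 Defb6 cells and 0 higher and 11 lower of 18 against the Krt1 Krt10 cells (medians -3.63, -3.37 and -1.93). Flg had 11.4, 3.80, 2.38 and 34.8 CPM and log2 fold changes of -5.22 ± 0.43, -5.43 ± 0.53 and -6.37 ± 0.30, against 265 to 583 CPM, 125 to 1135 CPM and 385 to 1139 CPM in the other classes. All 4 values lay below those of each class. Hornerin (Hrnr), a filaggrin-like protein, differed by -5.35 ± 0.23, -6.09 ± 0.23 and -7.95 ± 0.17 and Lor by -4.07 ± 0.34, -4.23 ± 0.44 and -4.96 ± 0.23. Krt2, a keratin of the upper spinous layer, had 97.2, 65.9, 197 and 23.2 CPM and log2 fold changes of -1.60 ± 0.43, -3.72 ± 0.55 and -7.08 ± 0.30.

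Tgm3 was the exception in the cornified list. It had 262, 404, 221 and 295 CPM and was higher than in Krt6a Krt16 Krt17-high cells by 3.98 ± 0.17 and than in Krt79 Defb6 cells by 2.55 ± 0.18 on the log2 scale, with -0.01 ± 0.10 against Krt1 Krt10 cells, which did not pass. Sprr1b was called higher only against Krt79 Defb6 cells, where its log2 fold change was 1.53 ± 0.40. The difference between the comparisons was not tested.

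Among the other nail, companion and wound keratins, the list had 2 higher and 6 lower of 8 tested against the Krt6a Krt16 Krt17-high cells, 2 higher and 3 lower of 8 against the Krt79 Defb6 cells and 2 higher and 3 lower of 6 against the Krt1 Krt10 cells (medians -3.98, -2.20 and -0.50, and -1.24 against Krt79 Defb6 cells with genes at 0 set to their bound). Krt24, a type I keratin, had 1870.0, 2346, 1488 and 1413 CPM and log2 fold changes of 3.68 ± 0.10 and 3.48 ± 0.30, both called, and of 0.52 ± 0.06 against Krt1 Krt10 cells, which was under the 2-fold limit. Krt75, a companion layer keratin, had 1.56, 6.33, 4.76 and 0 CPM and log2 fold changes of -6.67 ± 0.34 against Krt6a Krt16 Krt17-high cells, called lower, and 3.24 ± 0.81 against Krt1 Krt10 cells, called higher. Its levels rested on few UMIs, 4 each in the cells of low, middle and high Krt5 summed over the libraries. Krt79 was called lower than in Krt6a Krt16 Krt17-high cells, with a log2 fold change of -8.46 ± 0.24. The lists of the infundibulum and sebaceous gland, with 0 higher and 6 lower of 6 tested against the Krt6a Krt16 Krt17-high cells, 0 higher and 8 lower of 8 against the Krt79 Defb6 cells and 1 higher and 2 lower of 8 against the Krt1 Krt10 cells, and of the inner root sheath, with 0 higher and 4 lower of 5 tested against the Krt6a Krt16 Krt17-high cells, 0 higher and 6 lower of 7 against the Krt79 Defb6 cells and 0 higher and 1 lower of 7 against the Krt1 Krt10 cells, had medians of -3.78, -4.26 and 0.14 and -2.58, -2.09 and -0.47.

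The list of hard keratins and matrix factors had 3 higher and 0 lower of 7 tested against the Krt6a Krt16 Krt17-high cells, 3 higher and 1 lower of 10 against the Krt79 Defb6 cells and 3 higher and 1 lower of 10 against the Krt1 Krt10 cells (medians -0.07, -0.48 and -0.07). The 3 genes higher in each comparison were Krt36, Krt84 and Hoxc13, a homeobox factor needed for hair and nail. Hoxc13 had 270.4, 184, 102 and 86.9 CPM, and its log2 fold changes were 1.48 ± 0.14, 2.21 ± 0.14 and 2.67 ± 0.13 (adjusted p 3.16e-10 to 1.31e-05). In each library its value lay above those of the other classes. The SAR131675 pair lay above the LNR pair, and the pairs also differ in depth and Cell Ranger version. It had a UMI in 92.2, 80.9, 58.7 and 51.1% of the cells, in 45.9, 31.9, 24.6 and 23.3% after thinning and in 0.965% to 1.43% of mesenchymal cells. Of the other hard keratins, Krt31 had no UMI, and Krt34, Krt81 and Krt86 were at 0 to 1.19 CPM, 0 to 1.19 CPM and 0 to 1.56 CPM. Lef1, a Wnt-dependent factor of the hair and nail matrix, was at 0 to 1.27 CPM.

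The kallikrein proteases and their inhibitors divided. The list had 3 higher and 11 lower of 23 tested against the Krt6a Krt16 Krt17-high cells, 5 higher and 12 lower of 25 against the Krt79 Defb6 cells and 7 higher and 12 lower of 27 against the Krt1 Krt10 cells (medians -1.16, -0.76 and -0.98). Klk7, a chymotrypsin-like protease that cuts corneodesmosomes, had 131, 35.5, 73.7 and 27.0 CPM and differed by -4.14 ± 0.32, -3.27 ± 0.34 and -2.02 ± 0.24. Klk5, its activator, was called lower in all 3 comparisons too. Klk8 was at 398, 328, 434 and 500.1 CPM and higher by 1.35 ± 0.14 and 1.37 ± 0.19 on the log2 scale, with -0.12 ± 0.08 against Krt1 Krt10 cells, which did not pass. Serpinb2, an inhibitor of plasminogen activators, had 397, 756, 319 and 322 CPM and log2 fold changes of 1.27 ± 0.13, 1.85 ± 0.11 and 1.26 ± 0.10, all called. Cst6, the cysteine protease inhibitor cystatin M/E, had 1670.3, 2672, 361 and 705 CPM and log2 fold changes of -4.99 ± 0.49, -4.33 ± 0.43 and 0.70 ± 0.45, of which the last did not pass. Its UMIs were uneven, with at least 20 in 15 cells.

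Genes of glutathione use and NRF2 had 5 higher and 3 lower of 26 tested against the Krt6a Krt16 Krt17-high cells, 4 higher and 4 lower of 26 against the Krt79 Defb6 cells and 5 higher and 3 lower of 26 against the Krt1 Krt10 cells (medians 0.17, 0.21 and 0.51). Nqo1, a quinone reductase, had 35.9, 48.1, 42.8 and 30.9 CPM and log2 fold changes of 1.69 ± 0.19, 1.43 ± 0.22 and 3.03 ± 0.24. Slc7a11, the cystine importer, had 27.0, 41.8, 47.6 and 102 CPM and 1.36 ± 0.26, 3.21 ± 0.31 and 2.59 ± 0.38, and Gsta4, a glutathione transferase, 44.2, 79.8, 197 and 292 CPM and 4.10 ± 0.58, 4.52 ± 0.33 and 4.28 ± 0.30. These 3 passed in each comparison. Aldh3a1, an aldehyde dehydrogenase, was called lower in all 3 with log2 fold changes of -3.60 ± 0.29, -4.61 ± 0.29 and -2.90 ± 0.30, and so was Gpx3, the secreted glutathione peroxidase.

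Alarmins and cytokines were called lower more often than higher in each comparison. The list had 0 higher and 10 lower of 18 tested against the Krt6a Krt16 Krt17-high cells, 2 higher and 12 lower of 21 against the Krt79 Defb6 cells and 4 higher and 7 lower of 22 against the Krt1 Krt10 cells (medians -1.38, -1.73 and -0.79). Defb1, a constitutive β-defensin, had 12.5, 10.1, 8.32 and 23.2 CPM and log2 fold changes of -4.52 ± 0.21, -4.24 ± 0.24 and -1.83 ± 0.22 (adjusted p 1.26e-07 to 7.88e-06), and its 4 values lay below those of every other class. Il1rn, the interleukin 1 receptor antagonist, and the interleukin 36 genes Il36a, Il36b and Il36rn were called lower in all 3. S100a8 had 39.0, 2.53, 188 and 504 CPM in 20 cells and S100a9 26.0, 0, 106 and 355 CPM in 8 cells. A single cell held 90.7, 94.3 and 79.7% of the S100a8 UMIs of the SAR131675, LNR and sham libraries and 96, 98.9 and 87.5% of those of S100a9. They were called higher against Krt79 Defb6 and Krt1 Krt10 cells, and against Krt6a Krt16 Krt17-high cells they did not pass.

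**Figure D3:**
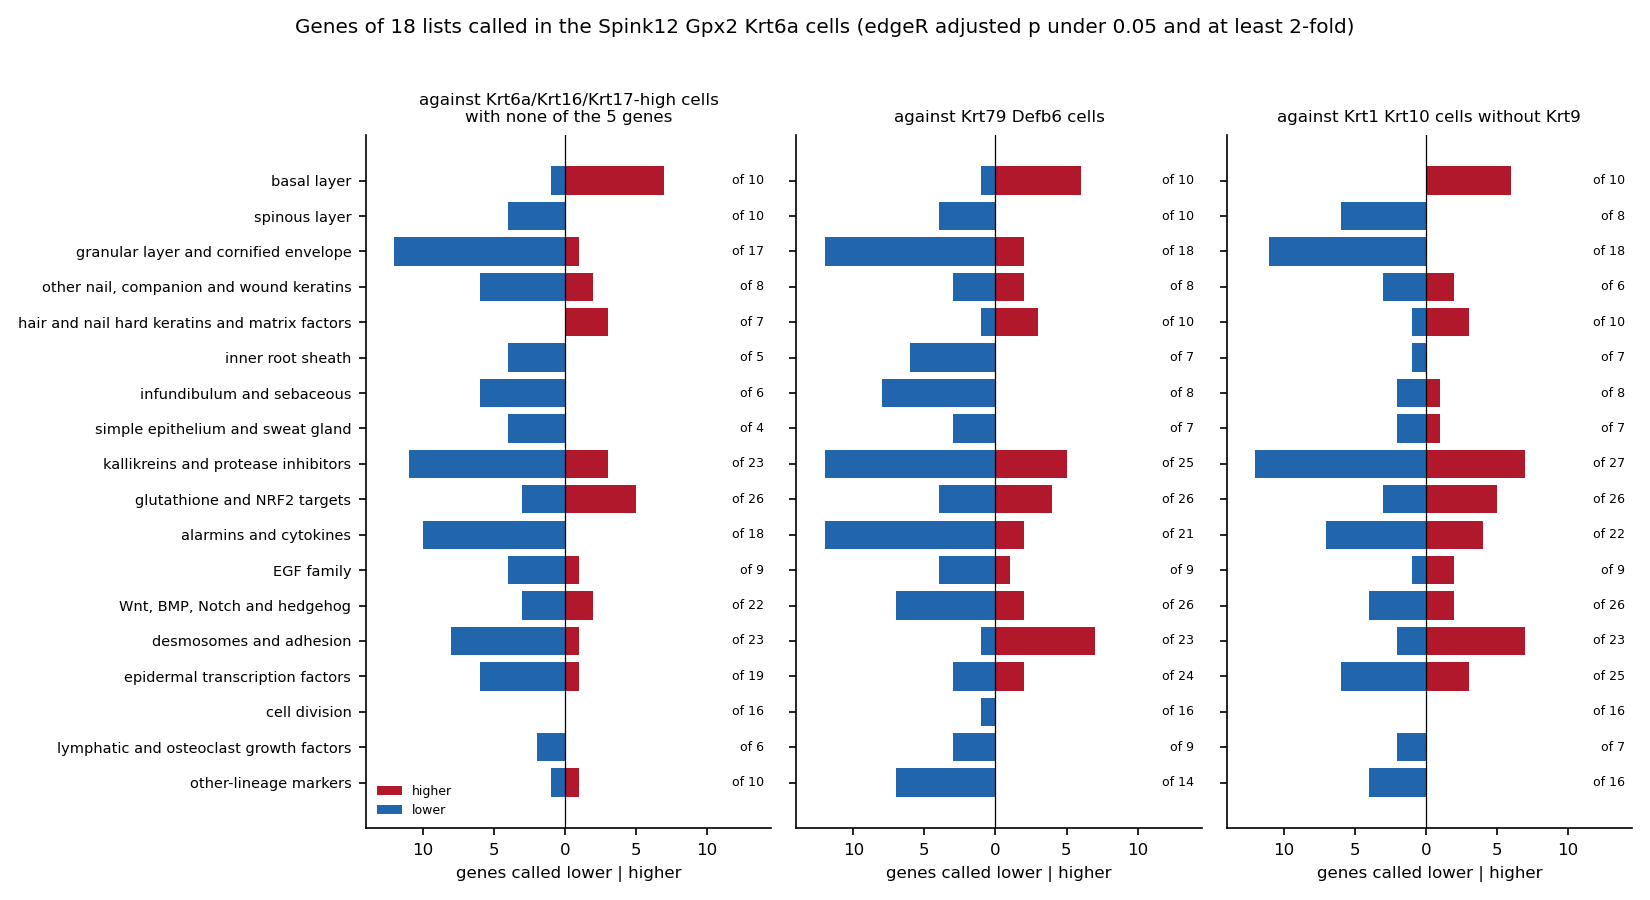
Number of genes of 18 lists called lower (to the left) or higher (to the right) in the Spink12 Gpx2 Krt6a cells against each of 3 other classes, with the number tested at the right. Basal genes lay mostly to the right, with 7, 6 and 6 of 10, and cornified envelope genes to the left, with 12 of 17, 12 of 18 and 11 of 18.

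The EGF family list, of 6 ligands and 3 receptors, was called in both directions. It had 1 higher and 4 lower of 9 tested against the Krt6a Krt16 Krt17-high cells, 1 higher and 4 lower of 9 against the Krt79 Defb6 cells and 2 higher and 1 lower of 9 against the Krt1 Krt10 cells (medians -0.74, -0.60 and 0.19). Epgn (epigen) had 33.8, 65.9, 21.4 and 30.9 CPM in 46 cells and was higher by 3.09 ± 0.32, 4.65 ± 0.35 and 3.41 ± 0.29. Areg (amphiregulin) had 1.56, 5.07, 2.38 and 3.86 CPM and log2 fold changes of -4.57 ± 0.32, -3.07 ± 0.32 and 0.19 ± 0.51, of which the first 2 were called. Ereg (epiregulin) had log2 fold changes of -4.16 ± 0.29, -3.35 ± 0.34 and -2.47 ± 0.36, all called lower.

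The Wnt, BMP, Notch and hedgehog list had 2 higher and 3 lower of 22 tested against the Krt6a Krt16 Krt17-high cells, 2 higher and 7 lower of 26 against the Krt79 Defb6 cells and 2 higher and 4 lower of 26 against the Krt1 Krt10 cells (medians -0.21, -0.27 and -0.05). Of all genes tested against Krt1 Krt10 cells, 7.99% were called higher, and 2 of 26 was near that share. Wnt5a, a ligand of noncanonical Wnt signaling, had 32.8, 35.5, 33.3 and 27.0 CPM and log2 fold changes of 1.91 ± 0.30, 1.55 ± 0.27 and 2.35 ± 0.23. Axin2, a target of canonical Wnt signaling, had 1.04, 0, 3.57 and 1.93 CPM in 6 cells and -2.98 ± 0.52, -3.71 ± 0.45 and -3.37 ± 0.47. Lgr6, a receptor of R-spondins, and Notch2 were called lower in all 3 comparisons too.

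Adhesion genes had 1 higher and 8 lower of 23 tested against the Krt6a Krt16 Krt17-high cells, 7 higher and 1 lower of 23 against the Krt79 Defb6 cells and 7 higher and 2 lower of 23 against the Krt1 Krt10 cells (medians 0.17, 0.70 and 0.75). Dsc2, desmocollin 2 of the desmosome, had 25.5, 38.0, 26.2 and 56.0 CPM and log2 fold changes of 2.19 ± 0.33, 2.70 ± 0.28 and 4.54 ± 0.38, and Cldn4, a claudin of tight junctions, 6.76, 6.33, 30.9 and 5.79 CPM and -3.24 ± 0.37, -2.20 ± 0.39 and -1.39 ± 0.33, and all passed. Dsg3, the desmoglein of lower layers, was called higher against Krt79 Defb6 and Krt1 Krt10 cells. Transcription factors of the epidermis had 1 higher and 6 lower of 19 tested against the Krt6a Krt16 Krt17-high cells, 2 higher and 3 lower of 24 against the Krt79 Defb6 cells and 3 higher and 6 lower of 25 against the Krt1 Krt10 cells (medians -0.48, -0.24 and -0.46). Of all genes tested against Krt79 Defb6 cells, 4.72% were called higher and 10.7% lower, and 3 lower of 24 was near that share. Cebpa, a factor of differentiating keratinocytes, had 63.4, 58.3, 52.3 and 46.3 CPM and differed by -1.25 ± 0.13, -1.07 ± 0.12 and -1.77 ± 0.12, and Tbx3 by -2.39 ± 0.58, -2.54 ± 0.52 and -2.13 ± 0.51.

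Cell division genes had 0 higher and 0 lower of 16 tested against the Krt6a Krt16 Krt17-high cells, 0 higher and 1 lower of 16 against the Krt79 Defb6 cells and 0 higher and 0 lower of 16 against the Krt1 Krt10 cells (medians -0.18, -0.75 and -0.07). The simple epithelium and sweat gland list had 0 higher and 4 lower of 4 tested against the Krt6a Krt16 Krt17-high cells, 0 higher and 3 lower of 7 against the Krt79 Defb6 cells and 1 higher and 2 lower of 7 against the Krt1 Krt10 cells (medians -3.14, -1.19 and -0.38), with Krt8, Krt18 and Krt19 at 0 to 1.93 CPM, 0 to 5.79 CPM and 0 to 1.93 CPM. Growth factors of lymphatic vessels and osteoclasts, which bear on the aim of the study, had 0 higher and 2 lower of 6 tested against the Krt6a Krt16 Krt17-high cells, 0 higher and 3 lower of 9 against the Krt79 Defb6 cells and 0 higher and 2 lower of 7 against the Krt1 Krt10 cells (medians -0.89, -1.49 and -1.18). Il34, a ligand of the receptor CSF1R, had 7.80, 3.80, 5.94 and 5.79 CPM and log2 fold changes of -1.58 ± 0.31, -2.10 ± 0.32 and -4.53 ± 0.22. Vegfc, the main ligand of VEGFR3, was at 0 to 1.93 CPM, and Tnfsf11, which encodes the osteoclast factor RANKL, had no UMI. The other-lineage list had 1 higher and 1 lower of 10 tested against the Krt6a Krt16 Krt17-high cells, 0 higher and 7 lower of 14 against the Krt79 Defb6 cells and 0 higher and 4 lower of 16 against the Krt1 Krt10 cells (medians -0.82, -1.75 and -0.47).

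The share of Spink12 Gpx2 Krt6a cells was low in every library. They were 103 of 29076 SAR131675 cells (0.354%, 95% Clopper-Pearson interval 0.289% to 0.429%), 47 of 24030 control diet cells (0.196%, 0.144% to 0.260%), 63 of 19827 LNR cells (0.318%, 0.244% to 0.406%) and 45 of 20669 sham cells (0.218%, 0.159% to 0.291%). The intervals of the SAR131675 pair did not overlap and those of the LNR pair did. The share was 1.81-fold that of control diet with SAR131675, a log2 ratio of 0.86 with an exact interval of 0.35 to 1.39, and 1.46-fold that of sham with LNR (0.55, -0.03 to 1.13).

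The rule asks for UMIs of 3 genes and so depends on depth. With every cell thinned to 3000 UMIs and shallower cells left out, 51, 30, 45 and 26 cells met the rule, and the log2 ratios were 0.43 (-0.25 to 1.13) and 0.85 (0.13 to 1.61). Thinning left out 2639, 3057, 4474 and 4637 cells. As a share of cells with at least 1% of UMIs from Krt5, Krt14, Krt1, Krt10, Krt6a, Krt16 and Krt17, the cells made up 0.734%, 0.376%, 0.944% and 0.540%, with log2 ratios of 0.97 (0.46 to 1.5) and 0.80 (0.23 to 1.39).

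**Figure D4:**
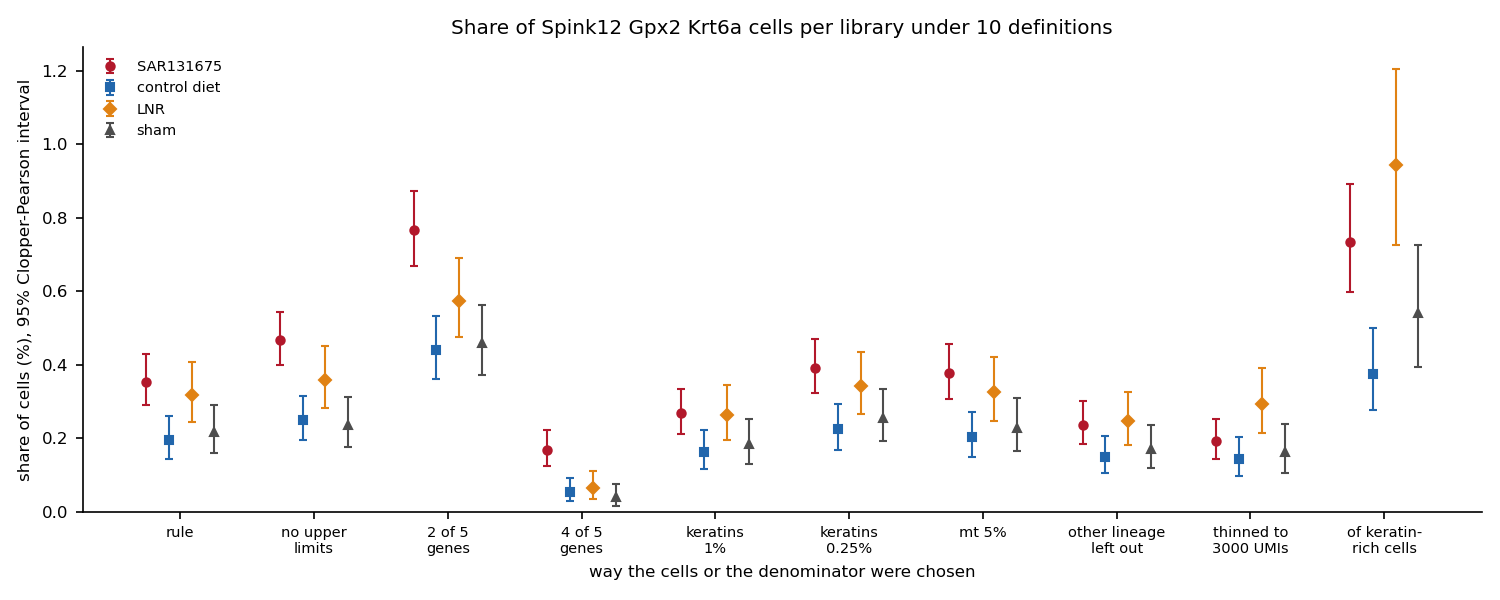
Share of Spink12 Gpx2 Krt6a cells in each library, in percent with 95% Clopper-Pearson intervals, under 10 ways of choosing the cells or the denominator. SAR131675 lay above control diet and LNR above sham in all 10, and the values ran from 0.0387% in sham with at least 4 of the 5 genes to 0.944% in LNR as a share of keratin-rich cells.

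The number of genes that differed by 2-fold between conditions within the Spink12 Gpx2 Krt6a cells depended on the minimum of UMIs and on the cells taken. With SAR131675, 33 (0.755%) of 4368 genes with at least 100 UMIs over the pair were more than 2-fold higher and 23 (0.527%) lower, 1.28% in all, or 43 and 16 with TMM scaling. With LNR, 18 (1.13%) of 1586 were higher and 12 (0.757%) lower, 1.89% in all. In place of these 56 and 30 genes, 514 and 409 were past 2-fold at a minimum of 20 UMIs, 12 and 5 at 500, 193 and 38 without upper limits, 99 and 10 with at least 4 of the 5 genes and 4 and 8 after thinning. Of 1556 genes measured in both pairs, 451 were higher in both treated libraries and 380 lower in both. Of the rule's own genes, Krt42 had log2 ratios of 1.30 (1.22 to 1.39) with SAR131675 and -0.63 (-0.75 to -0.51) with LNR, and Spink12 -0.49 (-0.51 to -0.46) and 0.65 (0.62 to 0.69), so that both had opposite signs in the pairs.

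Of the 1556 genes measured in both pairs, only 1 was more than 2-fold higher in both. This was Igfbp3, a binding protein of insulin-like growth factors. It had 45.8 against 20.3 CPM with SAR131675, a log2 ratio of 1.18 (0.40 to 2.04), and 156 against 27.0 CPM with LNR, a log2 ratio of 2.53 (1.73 to 3.44). A single cell held 70.2% of its UMIs in LNR and 81.25% in control diet. Here and below, ratios without each library's highest cell leave out that cell's UMIs of the gene but keep the full sum of UMIs. Without each library's highest cell the ratios were 3.28 (1.67 to 5.59) and 1.00 (0.04 to 2.07). The first of these rested on 71 against 3 UMIs. Ptn, the heparin-binding growth factor pleiotrophin, was the only 1 of these 1556 genes more than 2-fold lower in both. It had 36.9 against 88.7 CPM (-1.26 (-1.76 to -0.77)) and 42.8 against 169.9 CPM (-1.99 (-2.59 to -1.41)), and without the highest cells the ratios were -1.10 (-1.77 to -0.42) and -1.56 (-2.29 to -0.85). With the cells above the upper limits added, its ratios became 0.51 and 0.25.

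Lama3 and Lamb3, laminin chains of the basement membrane under basal keratinocytes, were among the genes with the largest shared rise, and this rested on 1 cell in LNR. Lama3 had log2 ratios of 0.66 (0.20 to 1.14) and 2.07 (1.37 to 2.85) and Lamb3 of 0.62 (0.07 to 1.20) and 0.87 (0.29 to 1.49). A single cell held 87.7% and 68.4% of their LNR UMIs. Without the highest cell of each library, the ratios with LNR were -0.61 (-1.72 to 0.51) and -0.55 (-1.34 to 0.24), and those with SAR131675 0.84 (0.33 to 1.37) and 0.97 (0.35 to 1.64). Fosb, an AP-1 factor of the early response, had 0.66 (0.12 to 1.24) and 0.81 (0.15 to 1.51), and 0.92 (0.31 to 1.57) and 0.89 (0.11 to 1.72) without those cells.

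Among the genes lower in both pairs, Gsta4 kept its sign and size. Its log2 ratios were -0.85 (-1.34 to -0.36) and -0.56 (-0.89 to -0.24), and -0.73 (-1.26 to -0.19) and -0.58 (-1 to -0.17) without the highest cells. Clu (clusterin) had -0.56 (-1.05 to -0.06) and -1.30 (-1.87 to -0.73), and -0.35 (-0.89 to 0.20) and -0.62 (-1.33 to 0.10) without them. Cst6 had -0.68 (-0.76 to -0.60) and -0.96 (-1.19 to -0.74), but 1 control diet cell held 73.5% of its UMIs in that library, and without the highest cells the ratio with SAR131675 was 0.69 (0.55 to 0.82). Krt84 had -0.96 (-1.18 to -0.75) and -0.63 (-0.88 to -0.38), and -2.68 (-3.12 to -2.25) and -0.58 (-0.94 to -0.23) without them. It rested on 3 or 4 cells per library, and with the cells above the upper limits added its ratio with LNR became 1.49.

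**Figure D5:**
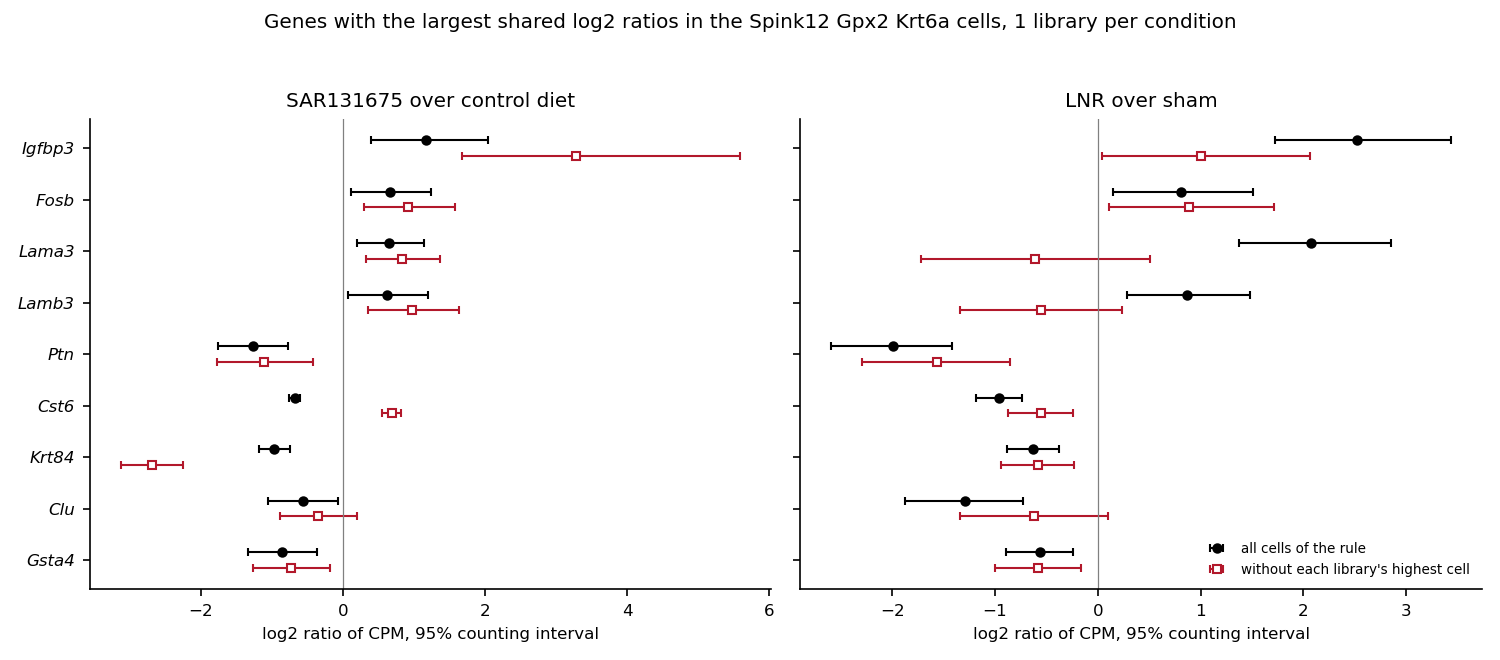
Log2 ratio of CPM between treated and control library, with 95% counting intervals, for 4 genes with the largest shared rise and the 5 with the largest shared fall. Without each library's highest cell (open squares), the LNR ratios of Lama3 and Lamb3 and the SAR131675 ratio of Cst6 changed sign.

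Some list members with at least 100 UMIs over a pair passed 2-fold between its conditions. Of all genes outside the rule at that minimum, 1.28% did so with SAR131675 and 1.89% with LNR. Some lists stood above these shares, such as granular and cornified envelope genes, with 2 of 6 in the SAR131675 pair. Adhesion genes had 0 of 13 there. Members with fewer UMIs are not counted here. With SAR131675, Krt1, Sprr1a, Sprr1b, Klk7 and Hes1 were more than 2-fold higher and Spink5 lower. The red cell genes Hbb-bs and Hba-a1 were also more than 2-fold higher there, and Hbb-bs gives most of the other-lineage level of 534 against 73.5 CPM. With LNR, Krt2, Wfdc12, Hbegf, Gjb2 and Acta2 were among those more than 2-fold higher and Krt1, S100a8 and S100a9 were lower. The log2 ratios of S100a8 and S100a9 with LNR were -1.42 and -1.75, and without each library's highest cell they rested on 9 against 53 and 1 against 23 UMIs. Krt1 thus lay on opposite sides in the pairs, at 4.25 (3.79 to 4.77) and -2.00 (-2.25 to -1.75) on the log2 scale. A single cell held 35.6% of the Krt1 UMIs in SAR131675, 38.5% in LNR and 52.1% in sham. A single SAR131675 cell held 70.4% of the Hbb-bs and 1 held 72.5% of the Hba-a1 UMIs there, and a single LNR cell 62.9% of those of Acta2, 54.2% of those of Wfdc12, 54.3% of those of Gjb2 and 42.2% of those of Krt2. A single control diet cell held 42.9% of its library's Spink5 UMIs, and without each library's highest cell the log2 ratio of Spink5 with SAR131675 was -0.68 (-0.80 to -0.55), under 2-fold. The other list members named here as past 2-fold in a pair stayed past it there without those cells, at 3.78 and -1.64 for Krt1, and Acta2 then rested on 46 against 2 UMIs.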

How the data were processed

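For each library the authors deposited a matrix of unnormalized UMI counts, with 33696 features by barcodes. The submitters' processing notes name Cell Ranger 6.1.2 and GRCm39, whereas the matrix headers give 6.1.2 for LNR and sham and 8.0.1 for the SAR131675 pair. The cells and the 18 gene lists were chosen with earlier results of these data known. UMI counts were summed per library and class and tested with edgeR 4.0.16 (TMM, filterByExpr, quasi-likelihood) in R 4.3.3, with the library as a block. The pairing comes from the shared library, and the p-values measure the spread over 4 libraries of different treatment, of which LNR and sham may share mice. The design asked for at least 50 cells per sum. The control diet and sham libraries held 47 and 45, were kept, and a fit without them is given as an alternative chosen after seeing the data.

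Conditions have 1 library each, so ratios of CPM carry exact conditional intervals at 95% and no test. For counting genes past 2-fold and choosing named genes, 0.5 was added to each sum. The same holds for ratios recomputed under other settings, except those without the highest cells. Named genes were the 8 of the rule, which were not tested, the 15 higher and 10 lower in all 3 comparisons and all 4 libraries with the largest smallest change, the 5 largest shared rises and falls between conditions, and list genes, of which 2 genes are not reported here. Krt74 and Krt85 had no feature. No doublet caller was run. In its place, cells with at least 2 of 16 other-lineage markers were left out as an alternative. Mesenchymal cells and cells thinned to 3000 UMIs gave the background. The scripts used Python 3.11.15, numpy 2.4.6, scipy 1.17.1, pandas 2.3.3 and matplotlib 3.10.9, and DESeq2 1.42.0 as an alternative, and were tested on simulated data. Promoters are RefSeq's on GRCm38.p6 and serve for letters only, and shared stretches were counted in GENCODE transcripts.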

Additional observations from a re-analysis of the deposited data

Results flagged for a closer look

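Barcodes above the limits of 5500 genes or 30000 UMIs lie outside the comparisons, and 101 of them met the rule on the 8 genes, 62 in SAR131675, 24 in control diet, 10 in LNR and 5 in sham. They were 37.6%, 33.8%, 13.7% and 10.0% of all barcodes that met the rule without upper limits, whereas the limits removed 17.6%, 15.5%, 2.57% and 2.42% of the barcodes that had passed the lower limit on genes and the mitochondrial limit. No group had the 4 or more samples needed to look for a library far from its group.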

How the results depend on the processing

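Of 107 recomputed counts and shares, 73 stayed within the limits set for them and 34 moved. The share of Spink12 Gpx2 Krt6a cells was 0.467% in SAR131675 without upper limits. It was 0.767%, 0.441%, 0.575% and 0.460% with at least 2 of the 5 genes, and 0.169%, 0.0541%, 0.0656% and 0.0387% with at least 4. In SAR131675 it was 0.268% with the keratins at 1% or more and 0.237% without cells holding other-lineage markers. Thinned to 3000 UMIs it was 0.193% in SAR131675 and 0.143% in control diet. Among keratin-rich cells it was 0.734%, 0.376%, 0.944% and 0.540%. The log2 ratio of shares in the SAR131675 pair was 1.64 with at least 4 genes.

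Calls against Krt6a Krt16 Krt17-high, Krt79 Defb6 and Krt1 Krt10 cells fell to 946, 1060 and 1537 without the library block and to 961, 1169 and 1235 after thinning, with 10108, 12177 and 13169 and 8161, 9305 and 11387 genes tested. The fit of the 2 libraries with at least 50 cells gave 1153, 1369 and 1767. Leaving out 1 library at a time gave 1361 to 1713, 1473 to 2030 and 1928 to 2187 calls, DESeq2 1436, 1761 and 2051, and no filter on low counts 1942, 2302 and 2435. Of 887 recomputed fold changes of 25 named genes, 841 kept their direction and an adjusted p under 0.05, with no limit on fold change. The remaining 46 did not have such a p, all of them of Lyg1 or of genes at 0 UMIs.

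Genes past 2-fold with SAR131675 were 514 at a minimum of 20 UMIs, 12 at 500, 99 with at least 4 genes, 193 without upper limits and 4 after thinning. With LNR they were 409, 5, 10, 38 and 8, and 15 without other-lineage cells. Log2 ratios changed sign in 9 of 92 recomputations. Without upper limits, Ptn was at 0.51 and 0.25, Cst6 with SAR131675 at 0.070 and Krt84 with LNR at 1.49. Cst6 with SAR131675 was at 2.59 without other-lineage cells, 3.26 with at least 4 genes and 0.69 without the highest cells, where Lama3 and Lamb3 with LNR were at -0.61 and -0.55. The last setting was chosen after seeing the data. It removes the gene's UMIs of each library's highest cell from the count, but keeps the full sum of UMIs. For the other settings the cause was not tested. For a gene carried by few of 45 to 103 cells, the counting interval does not cover variation between libraries of a condition. This was not measured, with 1 library each.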

Other observations

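Ccer2 stood in cells of another kind. Its 24473 UMIs in kept cells lay mostly in 78 cells with at least 2 UMIs of it, 14 in SAR131675, 27 in control diet, 28 in LNR and 9 in sham, where it made up 52499, 37220, 29109 and 39509 CPM. Of these cells, 5 held Krt42, 1 held Spink12, 36 held Krt20, a keratin known from Merkel cells and gut, and 44 held Cck, the hormone cholecystokinin. Cck had 2015, 1093, 1535 and 2488 CPM in them and Chga, a protein of secretory granules, 398, 239, 153 and 202 CPM. The cells were grouped by Ccer2 after its values were seen.

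A further 115 cells held at least 3 of the 5 genes with under 0.5% of UMIs from Krt6a, Krt16 and Krt17, 20 in SAR131675, 15 in control diet, 32 in LNR and 48 in sham. They had 2491, 2377, 8995 and 5677 CPM of Krt42 and 1453, 3411, 16018 and 3392 CPM of Spink12. Krt6b had 8.23, 5.81, 12.6 and 9.26 CPM in them, against 1101 to 2257 CPM in the cells of the rule. Their Krt5 level was 3948, 4027, 1874 and 1891 CPM.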
